A study of Homo sapiens with 9 samples.

Results

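The genes described here are the 37 genes of the human mitochondrial chromosome, taken as all gene IDs whose symbols begin with MT-, out of 63677 gene IDs counted. They comprise 13 mRNA genes, 2 ribosomal RNA (rRNA) genes and 22 transfer RNA (tRNA) genes, and all 37 were matched. RNA came from K562, a human erythroleukaemia line derived from chronic myeloid leukaemia. The libraries were 1 of the uncloned parental line, which has wild-type SRSF2, 4 of CRISPR clones that kept wild-type SRSF2 (W19, W33, W36, W42; called WT clones) and 4 of CRISPR clones carrying the P95H substitution in SRSF2 (P9, P15, P22, P38; called P95H clones). SRSF2 is a nuclear splicing factor, and the design text states differential splicing as the aim. Each clone has 1 library, and the labels name no time, treatment, allele count or editing event. The p-values therefore measure the spread between single libraries of clones, in which clone and library preparation cannot be told apart.

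The mitochondrial chromosome is copied into long transcripts from both of its strands, and most mRNAs and rRNAs are released when the tRNAs that lie between them are cut out. The mRNAs have no introns and encode core subunits of respiratory complexes I, III and IV and of ATP synthase, while all other subunits, and every protein that transcribes, cuts and translates these RNAs, come from nuclear genes. By the strand from which they are read, 12 mRNAs, both rRNAs and 14 tRNAs are heavy-strand genes, and MT-ND6 and 8 tRNAs are light-strand genes. Libraries were made from polyadenylated RNA. Most mitochondrial mRNAs carry short poly(A) tails, and mature tRNAs do not, so a level here joins the amount of an RNA with how well it was captured.

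Some of these genes share bases, which bears on how reads are assigned to them. MT-ATP8 and MT-ATP6 encode 2 subunits of ATP synthase on 1 mRNA, and MT-ND4L and MT-ND4 encode 2 subunits of complex I on another. The sequences are those of GENCODE 29 transcripts (GRCh38), 5′ to 3′, with the stretch shared by both genes of a pair in capitals.
MT-ATP8, last bases: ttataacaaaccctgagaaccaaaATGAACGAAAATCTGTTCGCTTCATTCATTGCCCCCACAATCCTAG
MT-ATP6, first bases: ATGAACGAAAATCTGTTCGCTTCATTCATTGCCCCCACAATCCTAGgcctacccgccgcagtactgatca
MT-ND4L, last bases: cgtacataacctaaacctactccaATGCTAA
MT-ND4, first bases: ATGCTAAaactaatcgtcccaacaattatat
The capitals run from the start codon of the downstream gene to the stop codon of the upstream gene. The shared stretch is 46 bases for MT-ATP8 and MT-ATP6, which is 22.2% of the 207 bases of MT-ATP8 and 6.75% of the 681 bases of MT-ATP6. It is 7 bases for MT-ND4L and MT-ND4, or 2.36% of the 297 bases of MT-ND4L. The 3 tRNAs that follow are shown because a single-clone or group difference below concerns them, with no part in capitals.
MT-TY: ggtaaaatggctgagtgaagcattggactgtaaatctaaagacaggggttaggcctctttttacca
MT-TS1: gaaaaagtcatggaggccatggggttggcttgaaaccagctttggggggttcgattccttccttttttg
MT-TA: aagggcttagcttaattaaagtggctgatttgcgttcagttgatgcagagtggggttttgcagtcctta
MT-TY, the tRNA for tyrosine, MT-TS1, a tRNA for serine, and MT-TA, the tRNA for alanine, are all read from the light strand and lie beside or between heavy-strand genes.

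Counts in genes ranged from 24546255 in W33 to 35477328 in the parental library. Before TMM scaling, 3 counts thus corresponded to between 0.0846 and 0.122 CPM. Unless stated otherwise, CPM is a count divided by the TMM-scaled size of its library. W33 stood apart from the other WT clones: against them, 13.5% of the 18173 genes tested had an adjusted p under 0.05 in edgeR's quasi-likelihood test with Benjamini-Hochberg adjustment, the rule meant by "called" below. For P22 that share was 0.369%, for W42 0.022%, for P15 0.0055% and for W19, W36, P9 and P38 0.0% each. K562 identity was checked on 9 erythroid genes, all of which had at least 3 counts in every library, with a summed level of 3185 to 4748 CPM in WT clones and 2842 to 6701 CPM in P95H clones. The 12 markers of lymphoid, myeloid, fibroblast, epithelial and endothelial cells summed to 18.4 to 39.9 CPM in WT and 21.3 to 40.9 CPM in P95H clones; LYZ was the highest at up to 38.2 CPM, in the parental library, and MS4A1, KRT5 and PECAM1 were at 0.

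Mitochondrial genes took about the same share of gene counts in both groups of clones. The share was 6.02% (W19), 5.37% (W33), 5.48% (W36) and 5.35% (W42) in WT clones, against 5.56% (P9), 6.37% (P15), 5.31% (P22) and 4.97% (P38) in P95H clones. The means were 5.56% ± 0.316 (SD, n = 4) in WT and 5.55% ± 0.597 (SD, n = 4) in P95H clones, and the groups overlapped, with P15 the highest and P38 the lowest of the 8 clones. The parental share was 4.75% (95% Wilson interval 4.75 to 4.76%), below every clone. At this depth the widest such interval over the 9 libraries spanned 0.018 percentage points, for counting error only, so the spread between clones was far wider than counting error. In bulk RNA, fewer cells with a transcript and less of it per cell cannot be told apart.

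By class, the mRNAs held most of the counts, and no class separated the groups. The 13 mRNAs took 4.61% ± 0.354 of gene counts in WT and 4.65% ± 0.544 in P95H clones (SD, n = 4 each). The rRNAs took 0.894% ± 0.0565 and 0.851% ± 0.0769, and the tRNAs 0.0533% ± 0.00646 and 0.0520% ± 0.00438. W19 and P15 were the only clones whose mRNA share exceeded 5%, at 5.14% and 5.43%, whereas the highest rRNA share, 0.962%, was in W36.

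**Figure D1:**
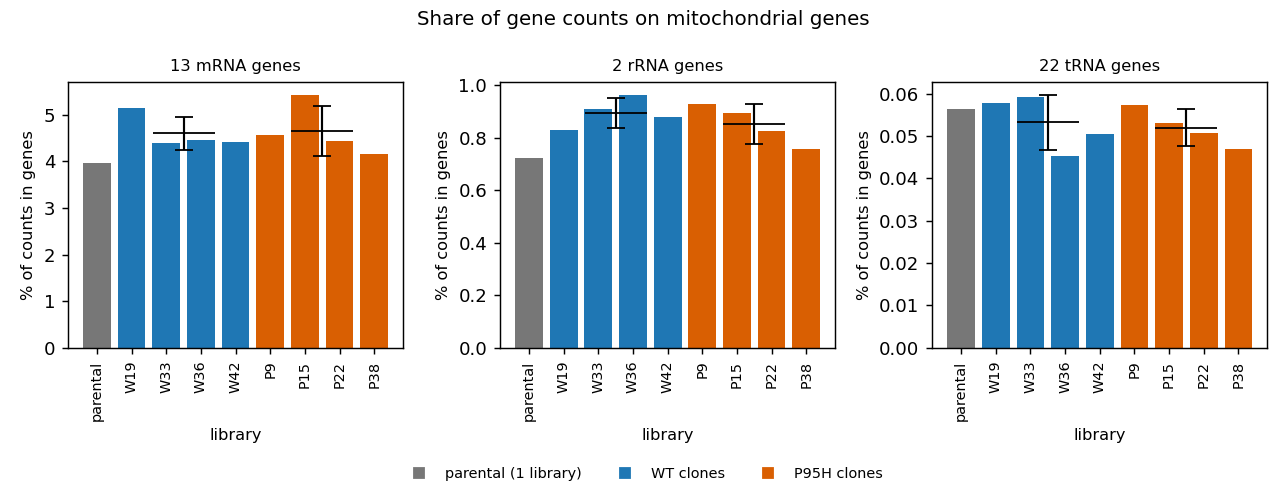
Share of gene counts (percent, y axis) on the 13 mRNA, 2 rRNA and 22 tRNA genes of the mitochondrial chromosome in each of 9 libraries, with the mean and SD of each group of 4 clones in black. W19 (5.14%) and P15 (5.43%) are the highest for mRNAs, and both groups overlap in every panel.

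Levels per length differed widely between genes of the same transcript. Averaged over the 8 clones and divided by gene length, the highest was MT-CO2, subunit 2 of cytochrome c oxidase (complex IV), at 10588 ± 1500.3 CPM per kb (SD, n = 8). MT-CO3 followed at 8482 ± 959 CPM per kb and MT-CO1, the catalytic subunit, at 6406 ± 573 CPM per kb. MT-CO2 was above MT-CO3, and MT-CO3 above MT-CO1, in all 8 clones, whereas MT-CO1 was above the rRNA MT-RNR2 (4997 ± 477 CPM per kb) in 7 of 8.

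Among the ATP synthase and complex I genes, MT-ND4 (4449 ± 735 CPM per kb) and MT-ATP6 (4118 ± 388 CPM per kb) kept their order in 5 of 8 clones. MT-ATP6 was above MT-ND1 (3013 ± 396 CPM per kb) in all 8, and MT-ND1 above MT-ND2 (2856 ± 221 CPM per kb) in 5 of 8. MT-ND3, MT-ND6, MT-CYB and MT-ND5 lay close together between 2020 and 1705 CPM per kb, and the order of neighbours there held in 6, 4 and 6 of 8 clones. MT-CYB encodes cytochrome b, the mitochondrial subunit of complex III.

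The lowest mRNAs per length were the short upstream genes of the 2 overlapping pairs. MT-ATP8 stood at 1297 ± 269 CPM per kb and MT-ND4L at 1105 ± 256 CPM per kb, each below its partner gene on the same mRNA. MT-RNR1, the rRNA of the small ribosomal subunit, stood at 969 ± 147 CPM per kb, far below MT-RNR2 of the large subunit. Capture and read assignment can differ between genes, and their part in this order was not tested.

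**Figure D2:**
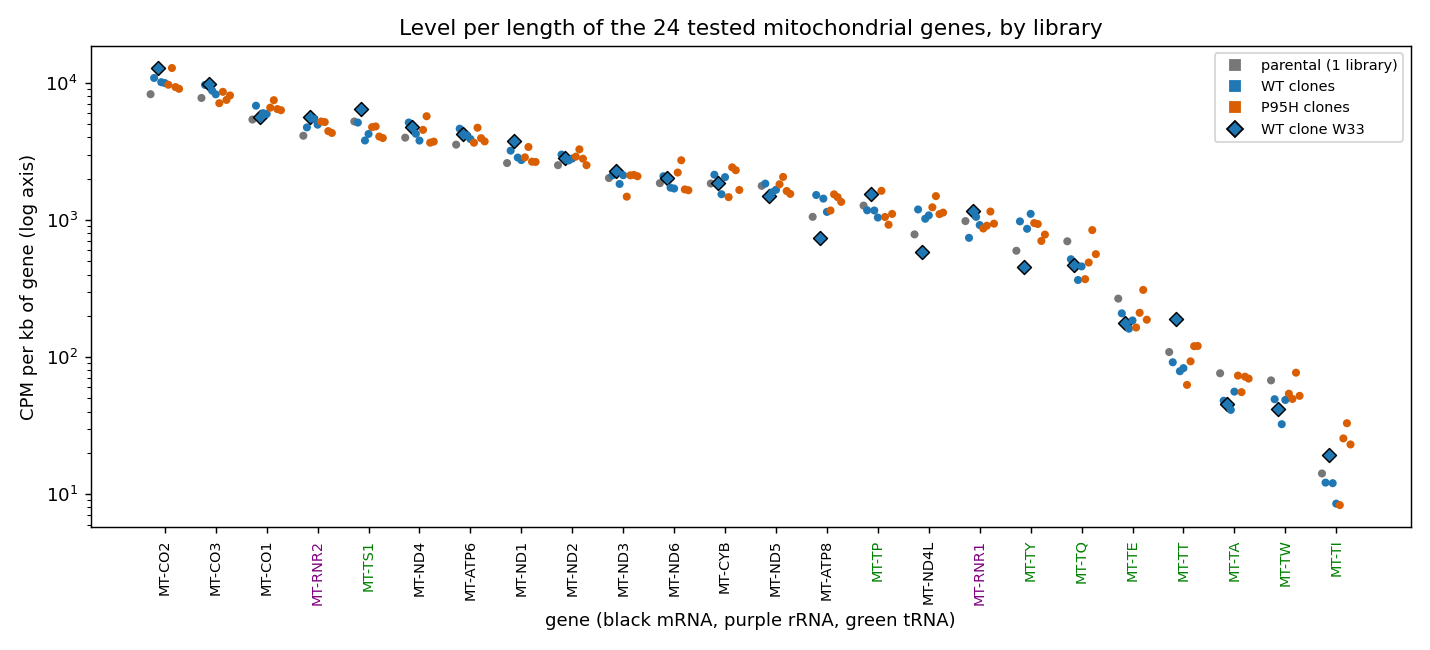
Level per length (CPM per kb, log axis) of the 24 mitochondrial genes that passed the filter on low counts, ordered by their mean over 8 clones; each point is 1 library and the diamond is W33. MT-CO2 leads at a mean of 10588 CPM per kb, and W33 lies lowest for MT-ATP8, MT-ND4L and MT-TY.

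Counts of the tRNA genes differed with their neighbours on the chromosome. A total of 7, all heavy-strand genes, had no read in any library: MT-TV, MT-TL1, MT-TK, MT-TG, MT-TR, MT-TS2 and MT-TL2. For RNA that was captured and assigned to its gene, this allows up to 0.122 CPM, before TMM scaling, in the shallowest library. That bound does not cover RNA lost to capture or read assignment. All 7 lie between 2 neighbours of their own strand, as do MT-TH, MT-TN and MT-TC, and no gene of these 10 exceeded 8 counts in a library. The 3 tRNA genes with no neighbour of their own strand, MT-TS1, MT-TP and MT-TQ, had at least 696 counts in every library. The 9 with 1 such neighbour ranged from 1 to 1997 counts and overlapped both other sets, with MT-TY, for example, above MT-TQ in mean level.

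Light-strand tRNA genes held 96.6 to 98.4% of all tRNA counts, and MT-TS1, which lies next to MT-CO1 on the opposite strand, 56.8 to 68.8%. Per library, MT-TS1 stood at 361 CPM in the parental line, 354 (W19), 447 (W33), 262 (W36) and 292 (W42) in WT clones and 328 (P9), 332 (P15), 280 (P22) and 273 (P38) in P95H clones. MT-TP, the tRNA for proline and the second highest, stood at 86.5 CPM in the parental line, 80.0 (W19), 106 (W33), 79.7 (W36) and 70.8 (W42) in WT clones and 111 (P9), 71.5 (P15), 62.8 (P22) and 75.3 (P38) in P95H clones. The groups overlapped for both. The kit named does not mark strand, so reads of a light-strand gene and of heavy-strand RNA across the same bases cannot be told apart, and the counts do not separate mature tRNA from precursor.

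The comparison of P95H with WT clones asks whether a mutation in a nuclear splicing factor went along with other levels of mitochondrially encoded RNA. Of the 37 genes, 24 passed the filter on low counts (13 mRNAs, 2 rRNAs and 9 tRNAs), and edgeR called 0 of them; it also called 0.0% of all 18173 genes tested. Only MT-TA had an unadjusted p under 0.05, against 6.07% of all genes higher and 5.65% lower at that level. DESeq2, which called 1.44% of all genes, and limma-voom with quality weights, which called 0.187%, called 0 of the 24. Among the mRNAs, 7 had a log2 difference above 0 and 6 below, with a median of 0.02, beside 0.01 over all genes.

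For complex IV, MT-CO3 had the lowest difference of the mRNAs. Its levels were 6085 CPM in the parental line, 7576 (W19), 7734 (W33), 6875 (W36) and 6466 (W42) in WT clones and 5573 (P9), 6744 (P15), 5887 (P22) and 6347 (P38) in P95H clones. The 2 highest clones were WT, but P15 lay above W42, so the groups overlapped. The difference was -0.21 ± 0.10 (log2, SE; edgeR adjusted p = 0.439).

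MT-CO2 ran from 6817 CPM in W42, 6918 in W36 and 7426 in W19 to 8810 in W33, and from 6190 in P38, 6373 in P22 and 6626 in P9 to 8776 in P15; the parental level was 5653. In each group a single clone stood well above the other 3, and the groups overlapped. The difference was -0.09 ± 0.13 (log2, SE; edgeR adjusted p = 0.816).

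For ATP synthase, MT-ATP8 stood at 218 CPM in the parental line, 315 (W19), 154 (W33), 296 (W36) and 237 (W42) in WT clones and 243 (P9), 318 (P15), 304 (P22) and 280 (P38) in P95H clones. W33 was the lowest library and P15 the highest, and the groups overlapped. The difference was 0.20 ± 0.21 (log2, SE; edgeR adjusted p = 0.735), and it was 0.02 without W33. MT-ATP6 differed by -0.06 ± 0.11 (log2, SE; edgeR adjusted p = 0.845).

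For complex I, MT-ND4L had the highest difference of the mRNAs. It stood at 233 CPM in the parental line, 354 (W19), 172 (W33), 303 (W36) and 321 (W42) in WT clones and 367 (P9), 443 (P15), 328 (P22) and 336 (P38) in P95H clones. W33 was again the lowest and P15 the highest, and W19 lay above P22 and P38. The difference was 0.36 ± 0.21 (log2, SE; edgeR adjusted p = 0.522), and it was 0.18 without W33.

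MT-ND6, the mRNA of the light strand, encodes a further complex I subunit. It stood at 975 CPM in the parental line, 1094 (W19), 1070 (W33), 903 (W36) and 890 (W42) in WT clones and 1165 (P9), 1431 (P15), 877 (P22) and 865 (P38) in P95H clones. P9 and P15 were the 2 highest clones and P22 and P38 the 2 lowest, so the P95H clones spanned the whole WT range. The kit does not mark strand, so the MT-ND6 counts can include heavy-strand RNA across the same bases. The difference was 0.14 ± 0.17 (log2, SE; edgeR adjusted p = 0.765), and it was -0.02 without P15. The other 5 complex I mRNAs lay between -0.10 (MT-ND1) and 0.11 (MT-ND5), and MT-CYB of complex III at 0.06 ± 0.18 (log2, SE), which turned to -0.038, -0.055 and -0.036 without W36, P15 and P22.

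For the ribosome, MT-RNR1 stood at 936 CPM in the parental line, 707 (W19), 1117 (W33), 1005 (W36) and 876 (W42) in WT clones and 826 (P9), 866 (P15), 1099 (P22) and 897 (P38) in P95H clones. MT-RNR2 stood at 6415 CPM in the parental line, 7380 (W19), 8858 (W33), 8485 (W36) and 7727 (W42) in WT clones and 8146 (P9), 8068 (P15), 6931 (P22) and 6723 (P38) in P95H clones. Both overlapped between the groups. The differences were 0.01 ± 0.15 and -0.11 ± 0.10 (log2, SE), with edgeR adjusted p of 0.991 and 0.692; with clones left out in turn they ran from -0.12 to 0.10 and from -0.16 to -0.061.

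Of the 9 tRNA genes tested, 5 lay above 0 and 4 below, from -0.15 to 0.81 with a median of 0.26 on the log2 scale. The highest was MT-TI, the tRNA for isoleucine, at 0.81 ± 0.41 (log2, SE, edgeR adjusted p = 0.467). Its level was low, at a mean of 0.90 CPM in WT and 1.55 CPM in P95H clones, and the groups overlapped. MT-TA stood at 5.26 CPM in the parental line, 3.31 (W19), 3.13 (W33), 2.84 (W36) and 3.86 (W42) in WT clones and 5.06 (P9), 3.83 (P15), 4.96 (P22) and 4.80 (P38) in P95H clones. All P95H clones but P15 were above every WT clone, and P15 was just below W42. The difference was 0.51 ± 0.19 (log2, SE; edgeR adjusted p = 0.353). MT-TW, the tRNA for tryptophan, was chosen after its values were seen because it was the 1 gene of the 24 whose groups did not overlap, at 2.20 to 3.35 CPM in WT and 3.37 to 5.23 CPM in P95H clones. Over all genes, 3.95% lay wholly higher and 4.65% wholly lower in P95H clones. MT-TW and MT-TA are neighbours read from opposite strands.

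**Figure D3:**
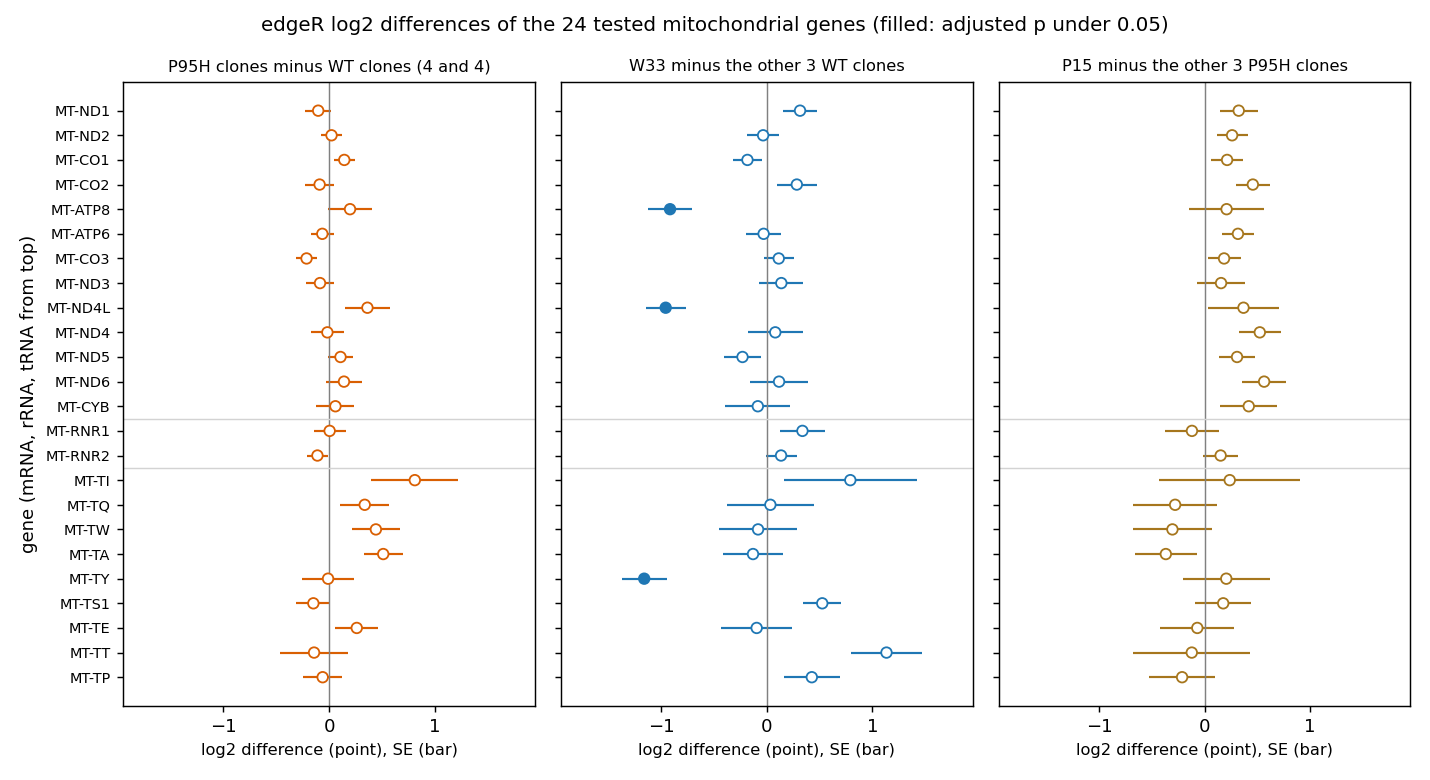
Log2 differences (points) with SE (bars) of the 24 tested genes from edgeR for P95H minus WT clones, W33 minus the other 3 WT clones and P15 minus the other 3 P95H clones; filled points have an adjusted p under 0.05. The left panel has no filled point, the middle one has MT-ATP8, MT-ND4L and MT-TY, and in the right one all 13 mRNAs lie above 0.

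Ratios within the chromosome do not depend on how a library is scaled. There were 19.5 ± 2.39 rRNA counts per 100 mRNA counts in WT and 18.4 ± 1.58 in P95H clones (SD, n = 4 each), from 16.1 in W19 to 21.5 in W36. MT-ND6 had 2.17 ± 0.0914 counts per 100 counts of the 12 heavy-strand mRNAs in WT and 2.40 ± 0.360 in P95H clones (SD, n = 4 each). P9 and P15 at 2.71 each lay above the WT range of 2.09 to 2.27, P22 at 2.07 lay below it and P38 at 2.10 within it. Because the kit does not mark strand, MT-ND6 counts can include heavy-strand RNA, so this is not a clean ratio of the strands.

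MT-ATP8 per 100 MT-ATP6 counts was 9.99 (W19), 5.33 (W33), 10.5 (W36) and 8.94 (W42) in WT clones, against 9.73 (P9), 9.93 (P15), 11.3 (P22) and 11.01 (P38) in P95H clones; it was 9.04 in the parental line. MT-ND4L per 100 MT-ND4 counts was 5.003 (W19), 2.62 (W33), 5.17 (W36) and 6.14 (W42) in WT clones, against 5.87 (P9), 5.64 (P15), 6.49 (P22) and 6.54 (P38) in P95H clones; it was 4.24 in the parental line. W33 was the lowest library in both ratios, and the remaining clones of both groups overlapped. MT-RNR1 per 100 MT-RNR2 counts ran from 9.58 in W19 to 15.9 in P22.

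**Figure D4:**
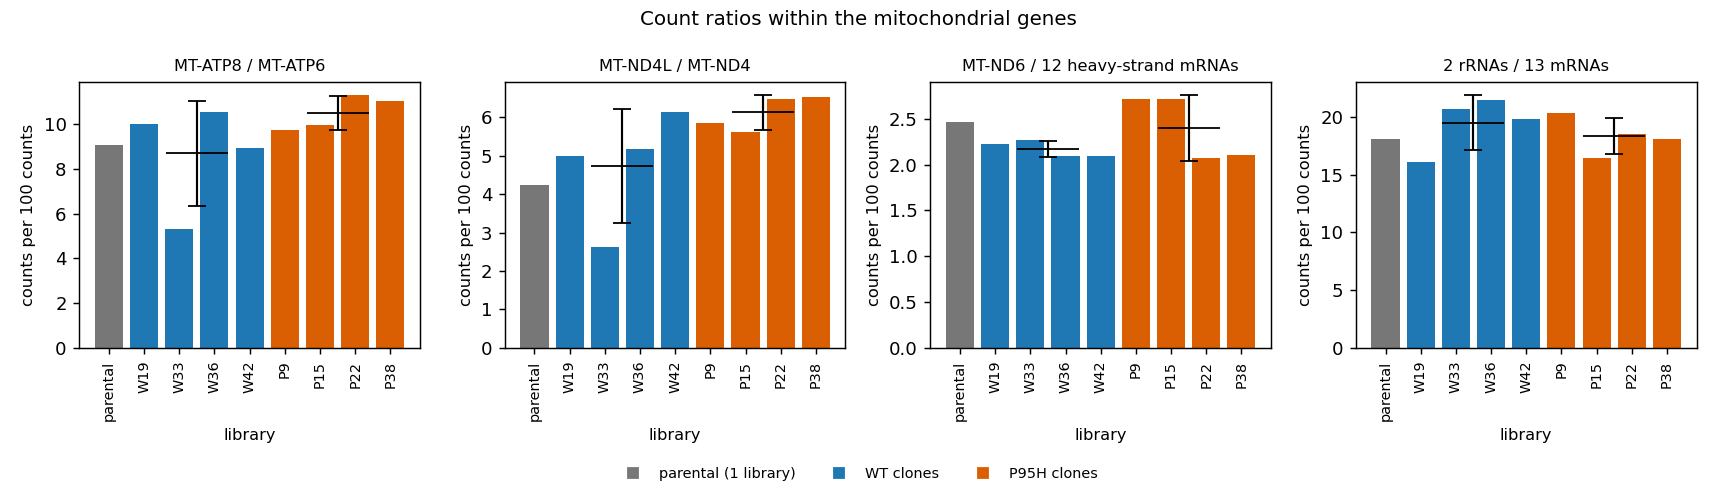
Counts of 1 gene or class per 100 counts of another (y axis) in each of 9 libraries, with the mean and SD of each group of 4 clones in black. W33 is the lowest for MT-ATP8 over MT-ATP6 (5.33) and MT-ND4L over MT-ND4 (2.62), and P9 and P15 are the highest for MT-ND6 over the heavy-strand mRNAs (2.71 each). MT-ND6 counts can include heavy-strand RNA across the same bases.

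Within the mRNA counts alone, complex IV genes held 51.8% ± 0.724 in WT and 51.2% ± 1.34 in P95H clones, and complex I genes 36.8% ± 0.504 and 37.3% ± 1.90 (SD, n = 4 each). Of the 13 mRNAs, 2 had shares that did not overlap between the groups. They were picked out after the values were seen, the shares of 13 genes sum to a fixed total, and no test was made. By CPM, 0 of the 13 lay wholly higher and 0 wholly lower in P95H clones, against 3.95% and 4.65% of all genes. The CPM of MT-CO1 overlapped between the groups, with a difference of 0.14 ± 0.10 (log2, SE, edgeR adjusted p = 0.589). MT-CO1 took 20.9% (W19), 18.1% (W33), 21.0% (W36) and 21.1% (W42) in WT clones, against 23.0% (P9), 21.3% (P15), 23.0% (P22) and 23.2% (P38) in P95H clones. P15 was thus just above W42, and the parental share was 20.6%. MT-ND4L took 0.622% ± 0.178 in WT, with W33 at 0.357%, and 0.802% ± 0.0320 in P95H clones (SD, n = 4 each).

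In W33, set against the other 3 WT clones with the lone clone assumed to vary like the rest, 3 of the 24 genes were called, all lower, or 12.5%; of all genes, 13.5% were called and 7.36% were called lower. The share among mitochondrial genes was therefore near that of all genes. MT-TY fell by 1.16 on the log2 scale (SE 0.21, edgeR adjusted p = 0.0192), MT-ND4L fell by 0.96 (SE 0.19, adjusted p = 0.0215) and MT-ATP8 fell by 0.92 (SE 0.21, adjusted p = 0.0291). MT-TY stood at 29.7 CPM in W33, beside 64.5 in W19, 56.9 in W36 and 73.1 in W42, and at 39.4 in the parental line, while the P95H clones stood at 62.6 (P9), 61.7 (P15), 46.4 (P22) and 51.6 (P38). W33 was the lowest library for all 3 genes.

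The downstream partners on the shared mRNAs were not called in W33: MT-ATP6 and MT-ND4 lay at -0.03 ± 0.17 and 0.08 ± 0.26 (log2, SE) against the other WT clones. W33 was the highest of the 8 clones for MT-ND1, MT-CO2, MT-CO3 and MT-ND3 and for both rRNAs, and the lowest for MT-CO1 and MT-ND5 as well as MT-ATP8 and MT-ND4L. DESeq2 called 5 genes in W33, adding MT-TS1 (log2 difference 0.54) and MT-TT, the tRNA for threonine (1.15), both higher; that is 20.8% of the 24, against 19.9% of all genes called by DESeq2.

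No other clone had a mitochondrial gene called against the rest of its group, by edgeR or DESeq2. Both tools called only a small share of all genes in those clones, so the absence of calls is not particular to mitochondrial genes. In P15 all 13 mRNAs lay above 0, from 0.16 to 0.56 with a median of 0.32 on the log2 scale, beside -0.01 over all genes; 3 of the 24 genes had an unadjusted p under 0.05, against 7.82% of all genes. P15 was the highest of the 8 clones for 9 of 13 mRNAs, but its 2 rRNAs lay at -0.12 and 0.15. In W19, 12 of 13 mRNAs lay above 0 with a median of 0.21, while MT-RNR1 and MT-RNR2 lay at -0.48 and -0.16 and 0 genes had an unadjusted p under 0.05.

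P38 had 11 of 13 mRNAs below 0, with a median of -0.18, and W36 had 11 of 13 below 0, with a median of -0.07; neither had a gene with an unadjusted p under 0.05, and nor did W42. P9 was the lowest clone for MT-ATP6, MT-CO3, MT-ND3 and MT-CYB, and 4 of its 24 genes had an unadjusted p under 0.05, against 3.97% of all genes. In P22 the 9 tRNA genes had a median of 0.39 on the log2 scale, and 2 had an unadjusted p under 0.05, against 7.90% of all genes.

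For the parental line, a model of all 9 libraries was fitted and its 1 library was assumed to vary like a clone. Of 27 mitochondrial genes tested, edgeR and DESeq2 called 0, and edgeR called 0.00485% of all genes. MT-TA alone had an unadjusted p under 0.05 (log2 difference 0.68), against 1.72% of all genes. Of the mRNAs, 12 of 13 lay below 0, with a median of -0.17 on the log2 scale, beside -0.02 over all genes. Of the 12 tRNA genes tested there, 10 lay above 0. The exception among the mRNAs was MT-ND5 at 0.11 ± 0.19 (log2, SE).

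Nuclear genes that make, translate or join these RNAs were read from 14 lists with 281 matched genes, of which 276 were tested. None was called in P95H against WT clones by edgeR, DESeq2 or limma-voom, and 213 of 276 lay below 0, with a median of -0.15 on the log2 scale. At an unadjusted p under 0.05 there were 4 higher (1.45%) and 35 lower (12.7%), and 3 genes (1.09%, against 3.95% of all genes) lay wholly higher and 27 (9.78%, against 4.65%) wholly lower in P95H clones. Without W33 the median was -0.06 and 24 were lower at that level (8.70%), against 5.53% of all genes at that level. The median was thus nearer 0 when that library was left out. W33 itself had 77 of the 276 called higher (27.9%, against 6.16% of all genes called higher) and 3 lower.

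Among respiratory chain and ATP synthase subunits encoded in the nucleus, 71 of 79 lay below 0 in P95H clones (median -0.21), and 50 of 79 without W33 (median -0.06). In W33, against the other WT clones, the 79 had a median of 0.60 on the log2 scale, beside -0.01 over all genes. The 13 mitochondrial mRNAs had a median of -0.03 there. COX6B1, a subunit of complex IV, rose by 0.88 in W33 (edgeR adjusted p = 0.0151), UQCR10 of complex III by 0.84 (adjusted p = 0.0235) and COX8A of complex IV by 0.90 (adjusted p = 0.03705). Whether the nuclear and the mitochondrial subunits differ from each other in W33 was not tested.

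By complex, complex I had 33 of 37 nuclear subunits below 0 in P95H clones, led by NDUFB6 at -0.37 ± 0.11 (log2, SE; edgeR adjusted p = 0.320). Its levels were 93.5, 120, 106 and 91.9 CPM in W19, W33, W36 and W42 and 76.5, 73.7, 80.7 and 84.6 CPM in P9, P15, P22 and P38, which did not overlap. NDUFA5 (-0.34) and NDUFS4 (-0.42) also lay wholly lower. The genes named from each nuclear list were chosen by their small p, so groups that do not overlap in them partly follow from that choice. Complex III had 8 of 9 below 0, with UQCRQ at -0.39, complex IV 10 of 11, with COX8A at -0.60, and ATP synthase 17 of 18, with ATP5MG at -0.47. Without W33 these counts were 26 of 37 for complex I, 5 of 9 for complex III, 5 of 11 for complex IV, whose median turned from -0.18 to 0.03, and 12 of 18 for ATP synthase. UQCRQ then lay at -0.24 and COX8A at -0.32. Complex II, which has no mitochondrially encoded subunit, had 3 of 4 below 0 with a median of -0.03. Of the 37 nuclear subunits of complex I, 4 lay wholly lower in P95H clones, against 4.65% of all genes.

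**Figure D5:**
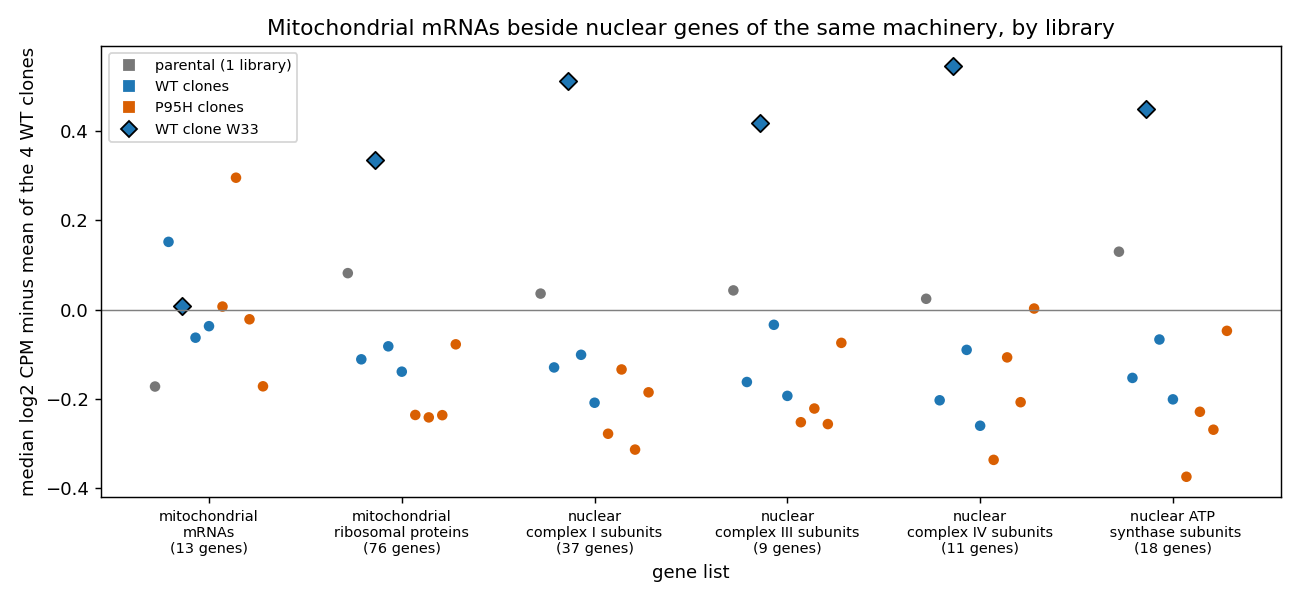
Median log2 CPM of each gene list minus its mean over the 4 WT clones (y axis) in each of 9 libraries, for the 13 mitochondrial mRNAs and 5 lists of nuclear genes of the same machinery. W33 (diamond) is the highest library in the 5 nuclear lists but near 0 for the mitochondrial mRNAs, where P15 is the highest.

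Of the mitochondrial ribosomal proteins, which join MT-RNR1 and MT-RNR2 in the ribosome, 66 of 76 lay below 0 in P95H clones (median -0.20), and 53 of 76 without W33 (median -0.09). MRPL36 stood at 51.1, 74.6, 51.2 and 52.2 CPM in the 4 WT clones and 36.4, 38.8, 42.6 and 47.8 CPM in the P95H clones, a difference of -0.46 ± 0.15 (log2, SE; edgeR adjusted p = 0.336). MRPL33 and MRPL11 also lay wholly lower, at -0.38 and -0.49. All of these were chosen by their small p. Of the 76 genes, 10 lay wholly lower, against 4.65% of all genes. In W33, against the other WT clones, the 76 had a median of 0.41 on the log2 scale, beside -0.01 over all genes.

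Of 26 genes for processing, stability and decay of mitochondrial RNA, 19 lay below 0 in P95H clones. In that list 4 genes lay wholly lower and 1 wholly higher, against 4.65% and 3.95% of all genes. Those named were chosen by their small p. HSD17B10, a subunit of the enzyme that cuts tRNAs at their 5′ ends, stood at 166, 309, 172 and 159 CPM in W19, W33, W36 and W42 and at 115, 139, 133 and 135 CPM in the P95H clones. The groups did not overlap, and the difference was -0.61 ± 0.20 (log2, SE; edgeR adjusted p = 0.336), or -0.34 without W33. SLIRP, which stabilises heavy-strand mRNAs, differed by -0.42, or -0.25 without W33. FASTKD5, an RNA-binding protein of mitochondrial RNA granules, was wholly higher in P95H clones at 0.32 ± 0.10 (log2, SE; adjusted p = 0.332).

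For transcription of the mitochondrial chromosome, 8 of 9 genes lay below 0 (median -0.13), with the elongation factor TEFM at -0.20 ± 0.12 and the initiation factor TFB2M at -0.22 ± 0.16 (log2, SE), or -0.10 without P15. Replication and nucleotide supply had 8 of 20 below 0, including RNASEH1 at -0.28, which was chosen by its small p and lay wholly lower. Of the 20, 2 lay wholly lower, against 4.65% of all genes. Among tRNA and rRNA modification enzymes 8 of 17 lay below 0, with MRM3 at -0.38 (-0.25 without W33), and among aminoacyl-tRNA synthetases 12 of 19, with VARS2 at -0.20. All 13 chaperones and proteases lay below 0 (median -0.09), with LONP1 at -0.36, or -0.24 without W33. Of the biogenesis regulators 6 of 8 lay above 0, with YY1 at 0.26, and among 9 content markers 6 lay below 0, while CS, citrate synthase, lay at 0.32.

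Copies of mitochondrial genes inserted in nuclear chromosomes can take or lose reads of the mitochondrial genes. Of 399 such copies matched, 92 had a count and 12 were tested, of which 0 were called; together they held counts equal to 0.928 to 1.35% of the mitochondrial counts. MTATP6P1 held 71.5 to 80.8% of them, or 15.2 to 19.5 counts per 100 counts of MT-ATP6, and differed by 0.13 between P95H and WT clones (edgeR adjusted p = 0.733), or 0.0046 without P15. MTND2P28 had 1.69 to 3.11 counts per 100 of MT-ND2. Adding the counts of the copies to those of the mitochondrial genes, an alternative chosen after seeing the data, left the log2 ratio of the share between the groups at 0.0018.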

How the data were processed

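RNA of 9 K562 libraries was sequenced on a HiSeq2000 after poly(A) selection and TruSeq RNA preparation, per the labels' protocols. The authors deposited unnormalized read counts for each gene of Ensembl release 75 (GRCh37). Their tools, per the submitters' processing notes, included bcl2fastq, TopHat2 2.0.4 and HTSeq 0.6.1p1. The sources used here do not give the strand setting, the overlap mode or the alignment settings. The 5 summary lines of each file were left out: reads in no gene (47.6 to 49.1%), ambiguous reads (2.23 to 2.55%) and reads aligned more than once (5.06 to 6.06%) are thus missing from all counts, and these can include reads of the overlaps and nuclear copies described above.

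Symbols, classes, strands, lengths, gene order and sequences came from GENCODE 29 (GRCh38) by gene ID; 52526 of 63677 IDs had a symbol, and no coordinates are given because the builds differ. edgeR 4.0.16 (R 4.3.3) was used with filterByExpr, TMM scaling and a robust quasi-likelihood fit. The threshold was 0.05 on Benjamini-Hochberg adjusted p over every gene tested. In simulated counts it recovered 79 of 100 genes changed 2-fold and 98 of 100 changed 4-fold, with 12 false calls. The changed genes were drawn only from those above a set mean level. MT-TI, MT-TW and MT-TA, at means of 1.22, 3.44 and 3.97 CPM over the clones, lay below it, so their recovery is not known. No outlying clone like W33 was simulated. Changes under 2-fold were not simulated, so recovery of smaller differences is not known. CPM are scaled by TMM factors over 9 libraries, except those given for 3 counts, and log2 CPM used a prior count of 2. DESeq2 1.42.0, limma 3.58.1 (voom), other scalings and filters and left-out clones were alternatives. Sums, shares and ratios over the members were described without a test.

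The members, the lists and the tests were chosen with earlier results of these data known. Values per library are given for MT-ATP8, MT-ND6, both rRNAs, the 2 highest mRNAs per length, the mRNAs with the highest and lowest P95H difference, any called gene and the 2 highest tRNA genes; from each nuclear list up to 3 genes were taken by p among those whose mean reached 1 CPM, and some of these are named.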

Additional observations from a re-analysis of the deposited data

Results flagged for a closer look

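In 66 groups of 4 clones examined, 5 held a clone whose gap to its nearest neighbour took up more of the group's range than Dixon's 95% critical value; chance flags about 1 in 20 groups. MT-ND3, a complex I subunit, was low in P9 among the P95H clones (512 CPM against 721 to 738, ratio 0.927). The share of counts on mitochondrial mRNAs was high in W19 among the WT clones (5.14% against 4.40 to 4.47%, ratio 0.907). MT-TT was high in W33 (12.5 CPM against 5.20 to 6.05, ratio 0.885). MT-TW was high in P22 (5.23 CPM against 3.37 to 3.68, ratio 0.833), and MT-CO2 was high in P15 (8776 CPM against 6190 to 6626, ratio 0.831).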

How the results depend on the processing

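No mitochondrial gene was called between P95H and WT clones under any of 18 alternatives, and no gene of the nuclear lists was. This includes leaving out each clone in turn. Over all genes, the edgeR alternatives called at most 5 genes each, DESeq2 1.44% and limma-voom 0.187%. The absence of calls is therefore not particular to mitochondrial genes. Calls in W33 numbered 5 with DESeq2 and 3 otherwise. With clones left out in turn, the log2 ratio of the mitochondrial share lay between -0.07 and 0.05 and the median mRNA difference between -0.06 and 0.08. Uncalled differences near 0 changed sign, and the cause was not tested. MT-RNR1 lay at -0.00027 with RLE scaling, -0.013 with upper quartile scaling, -0.0062 with scaling from nuclear genes, -0.00026 with DESeq2, -0.0058 in the 3-group fit, -0.0092 with the parental line counted as wild type, and -0.12 to 0.10 with clones left out. With limma-voom, MT-ATP8 lay at -0.044, MT-CYB at -0.0048 and MT-TS1 at 0.0010; without W33 and P22 they lay at -0.012, -0.049 and 0.037. MT-TY lay at 0.075 with the parental line as wild type. With clones left out, MT-CYB ran from -0.055 to 0.17, MT-ND6 from -0.021 to 0.24, MT-TY from -0.22 to 0.14, MT-TS1 from -0.27 to 0.0032 and MT-ATP8 from 0.02 to 0.32. No paired analysis was possible because the clone numbers in the labels are not shared between the groups. Genes under 3 counts per library, which include 7 tRNA genes at 0, could not be compared. Whether depth, capture or read assignment left them there was not tested.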
